A study of Felis catus with 25 samples.

Results

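Fibroblasts cultured from the cornea of the cat (Felis catus) that had been turned towards myofibroblasts with transforming growth factor beta 1 (TGFb1) were compared before and after a change to UK-5099. The 10 libraries of this comparison, out of 25 in the series, were chosen by their titles. The group TGFb held 5 libraries of cells harvested at day 2 after 2 days in 1 ng/ml TGFb1. The group UK held 5 libraries of cells that had the same 2 days of TGFb1, which was then taken away, and were kept for 3 days in 30 uM UK-5099 until harvest at day 5. Both groups are cells labelled as corneal fibroblasts, and no genotype is given for either. A group harvested at day 5 without a drug was not analysed here, so the drug, the removal of TGFb1 and the 3 further days in culture cannot be told apart in any value below. The 5 libraries of a group are called biological replicates in the labels, which do not say whether they were separate donors. The p-values therefore measure the spread between these libraries. The other 15 libraries, which entered the shared estimate of the spread, held untreated fibroblasts of day 0 (FB) and cells given 3 days of 7.5 uM troglitazone (Trog) or of troglitazone with 10 uM GW9662 (TrogGW) after the same TGFb1. Troglitazone is a ligand of the nuclear receptor PPAR-gamma and GW9662 is an antagonist of that receptor.

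UK-5099 inhibits the mitochondrial pyruvate carrier, a complex of the MPC1 and MPC2 proteins in the inner mitochondrial membrane that brings the end product of glycolysis into the mitochondrion. There pyruvate is turned into acetyl-CoA by pyruvate dehydrogenase or into oxaloacetate by pyruvate carboxylase, and the tricarboxylic acid cycle and the respiratory chain follow. In the wounded cornea, stromal keratocytes become fibroblasts and then myofibroblasts, which carry smooth muscle actin fibres, lay down a disordered collagen matrix and scatter light. The comparison asks which transcripts of the TGFb1-induced state were higher or lower once UK-5099 had taken the place of TGFb1.

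UK replicate 5 stood apart from the rest, and the tests below are given with and without it. Across genes, the correlation of its log2 CPM (counts per M of the TMM-scaled library total) with each other UK library was 0.852 to 0.868, whereas the lowest correlation within any group was 0.988 once it was left out. It held 14.8 M counts, against 20.3 to 25.2 M in the other UK libraries and 17.6 to 24.0 M in TGFb. UK replicate 5 was above all other UK libraries in 4727 genes and below all of them in 4886, by at least 2-fold in 2078 and 2864. The 8 genes furthest above the highest of the other UK libraries, by 2.93 to 3.37 on the log2 scale, were U3, a small nucleolar RNA, and ATP5ME, CHCHD7, ROMO1, NDUFB2, LSM8, RPL24 and COMMD6, several of them respiratory chain or ribosomal subunits. The 8 furthest below the lowest of them, by -7.20 to -5.45, were DTX4, PLAGL2, TMED8, MGAT5, SMCR8, SLC26A2, NCOA2 and ASXL2. The deviation followed the genomic span of the genes. In the shortest of 4 equal bins of genes ordered by span (median 6.54 kb), UK replicate 5 lay above the others by a median of 0.89 on the log2 scale, and in the longest (median 139 kb) it lay at -1.1. The medians of UK replicates 1 to 4 stayed between -0.0656 and 0.0764 in every bin.

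**Figure D1:**
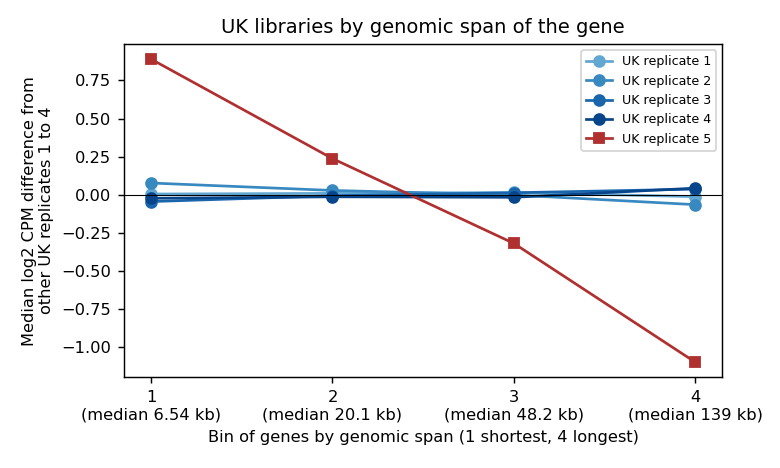
Median log2 CPM difference of each UK library from the other libraries among UK replicates 1 to 4 (y axis), in 4 equal bins of the tested genes ordered by genomic span from RefSeq (x axis). UK replicate 5 (red squares) goes from 0.89 in the shortest bin to -1.1 in the longest, while the other 4 libraries lie between -0.0656 and 0.0764.

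Among markers of other cells, KRT3 and KRT12 of corneal epithelium, PTPRC and CD163 of leukocytes and TYR and DCT of melanocytes had no count in any of the 10 libraries. The summed level of the 10 epithelial markers in the files was 6.63 to 9.28 CPM in TGFb, 1.39 to 1.99 in UK replicates 1 to 4 and 5.03 in UK replicate 5. The summed level of the 14 fibroblast markers was between 101000 and 122000 CPM in TGFb and between 92700 and 135000 in UK. Such a sum follows its most abundant members. Of 13 tested fibroblast markers 6 were higher and 2 lower (7 and 2 of 14 without UK replicate 5). The shares over all tested genes are given below. The 18 immune markers summed to 21.9 to 30.6 CPM in TGFb, 29.9 to 35.6 in UK replicates 1 to 4 and 59.1 in UK replicate 5. CSF1R, a macrophage growth factor receptor on the immune list, rose from 0.152 ± 0.0621 to 6.33 ± 1.21 CPM (SD, n = 5), and to 6.18 ± 1.34 in UK replicates 1 to 4. The 11 melanocyte and Schwann cell markers summed to 30.6 to 32.4 CPM in TGFb, 79.5 to 96.2 in UK replicates 1 to 4 and 33.7 in UK replicate 5, and the called members were MITF and MBP, both higher. The 15 vascular markers summed to 290 to 332 CPM in TGFb and 405 to 507 in UK, with CLDN5 at 0. Of 9 tested vascular markers 7 were higher and 2 lower (8 and 2 of 10 without UK replicate 5). EGFL7 and KDR were among the higher ones and TEK and PECAM1 were the lower ones. The call of KDR was lost in 7 of the 9 fits that each left out 1 library other than UK replicate 5. The 14 corneal endothelial markers summed to 3860 to 4350 CPM in TGFb, 2930 to 3790 in UK replicates 1 to 4 and 1530 in UK replicate 5, with ZP4 and CLRN1 at 0. The 9 genes of RNA quality and culture stress summed to 3910 to 4280 CPM in TGFb, 2930 to 3480 in UK replicates 1 to 4 and 6530 in UK replicate 5. The part of other cells and of RNA quality in the results was not tested. In bulk RNA, fewer cells of a type and less RNA per cell cannot be told apart.

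Of 10699 tested genes, 5408 differed between UK and TGFb at an adjusted p under 0.05 by edgeR's quasi-likelihood test (50.5%), with 2996 higher in UK (28.0%) and 2412 lower (22.5%). Without UK replicate 5, 7657 of 10798 genes differed (70.9%), with 3881 higher (35.9%) and 3776 lower (35.0%). The genes that changed by at least 2-fold numbered 1234 higher (11.5%) and 936 lower (8.75%), and 1103 (10.2%) and 971 (8.99%) without UK replicate 5. Both fits called 5074 genes in 1 direction (47.4%), 2690 higher (25.1%) and 2384 lower (22.3%), and 3 genes in opposite directions (0.0280%). A further 331 genes were called only with UK replicate 5 (3.09%), and 2554 only without it (23.9%). A fit of only these groups called 3210 genes, and 7378 without UK replicate 5. All 5 UK libraries lay above all 5 TGFb libraries in 1714 genes (16.0%) and below them in 1996 (18.7%). Scaling by library totals alone took the median over all genes from 0.0854 to 0.315 and gave 4549 genes higher and 1583 lower, and 5842 and 2176 without UK replicate 5. The directions below are relative to the TMM-scaled median. Counts of list members below stand against the shares over all tested genes given here. Below, log2 fold changes are UK minus TGFb ± SE, and where 2 values follow a gene's name the first is from all libraries and the second is without UK replicate 5. A call with all libraries does not mean that UK replicate 5 lay on the same side of TGFb as the other UK libraries.

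**Figure D2:**
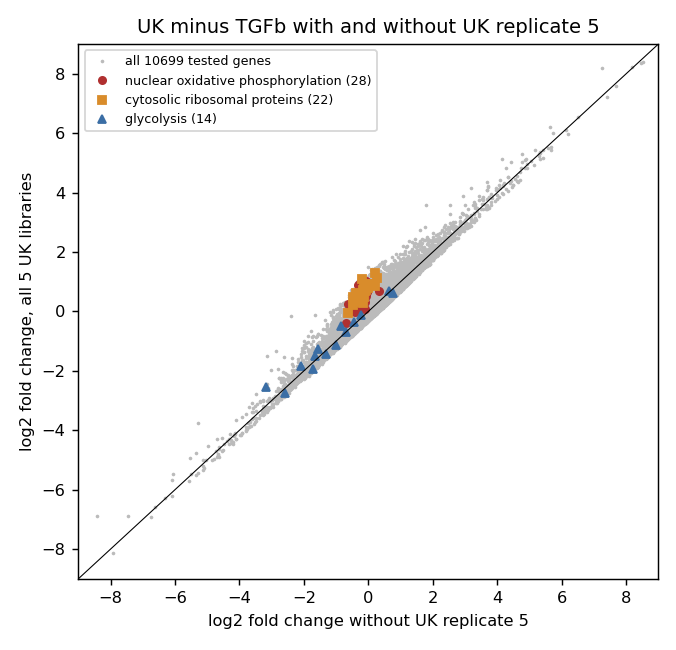
Log2 fold change of UK minus TGFb with all 5 UK libraries (y axis) against the same without UK replicate 5 (x axis), 1 point per tested gene, with the line of equality. The oxidative phosphorylation (red) and ribosomal genes (orange) lie above the line near 0 on the x axis, while most glycolysis genes (blue) lie low on both axes, with GAPDH at -1.82 and -2.10.

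Most contractile genes of the myofibroblast were lower in UK. ACTA2 measured 9413, 9112, 8612, 9378 and 8498 CPM in TGFb replicates 1 to 5, against 3234, 2305, 2848 and 2696 in UK replicates 1 to 4 and 5958 in UK replicate 5. ACTA2 encodes alpha smooth muscle actin, the defining protein of myofibroblasts, and none of its UK values reached the TGFb range, though UK replicate 5 was nearest to it. The log2 fold change was -1.40 ± 0.465 (adjusted p = 0.0151), and -1.70 ± 0.361 without UK replicate 5 (adjusted p = 0.000124). Its paralog ACTC1, cardiac actin, also fell, with a log2 fold change of -2.28 ± 0.342 (adjusted p = 5.97e-06), and -2.46 ± 0.285 without UK replicate 5 (adjusted p = 7.29e-09). ACTG2, enteric smooth muscle actin, fell too, with a log2 fold change of -0.90 ± 0.262 (adjusted p = 0.00631), and -1.25 ± 0.159 without UK replicate 5 (adjusted p = 4.55e-08), although UK replicate 5 lay within the TGFb range. Reads from these near-identical actins could have been split between them in the counting, so their separate values are uncertain. Of the smooth muscle contractile list, 0 of 21 tested members were higher and 16 lower (2 and 18 without UK replicate 5), with a median log2 fold change of -1.0 (-1.25 without UK replicate 5), against 0.0854 (0.0162) over all genes. FHL2 (-1.32 ± 0.0718 and -1.37 ± 0.058), CSRP1 (-1.74 ± 0.0961 and -1.78 ± 0.0883), PDLIM7 (-1.52 ± 0.0967 and -1.57 ± 0.0838) and CSRP2 (-1.29 ± 0.219 and -1.71 ± 0.101), LIM proteins of actin filaments and the Z disc, fell.

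CNN1 had levels of 443, 472, 463, 456 and 427 CPM in TGFb and of 97, 69.6, 86.8 and 90.6 in UK replicates 1 to 4, with UK replicate 5 at 51.3. Calponin, its product, binds actin in smooth muscle, and all UK values lay below all TGFb values. CNN1 changed by -2.52 ± 0.13 (adjusted p = 1.5e-13), and -2.39 ± 0.0808 without UK replicate 5 (adjusted p = 4.77e-21). TNC stood at 7829, 7009.8, 7767, 6412 and 6179.9 CPM in the TGFb libraries, at 905, 627, 847 and 782 in UK replicates 1 to 4 and at 170.3 in UK replicate 5. TNC encodes tenascin C, a wound matrix protein, and UK replicate 5 held the lowest level of the 10. TNC changed by -3.40 ± 0.347 (adjusted p = 1.71e-08), and -3.15 ± 0.223 without UK replicate 5 (adjusted p = 1.72e-13). Of the myofibroblast list, 2 of 16 tested members were higher and 12 lower (2 and 13 of 17 without UK replicate 5), with a median of -0.99 (-1.06 without UK replicate 5). Besides CNN1 and TNC, MYH9 (-2.00 ± 0.307 and -1.73 ± 0.117), a nonmuscle myosin, and LMOD1 (-1.76 ± 0.209 and -1.78 ± 0.133), an actin nucleator, fell. S100A4 (2.75 ± 0.426 and 1.59 ± 0.0877), a calcium-binding protein of fibroblasts, and PDGFRB (0.74 ± 0.291 and 1.02 ± 0.0881), a receptor for platelet-derived growth factor, rose, although the call of PDGFRB was lost when any 1 of the other 9 libraries was left out.

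**Figure D3:**
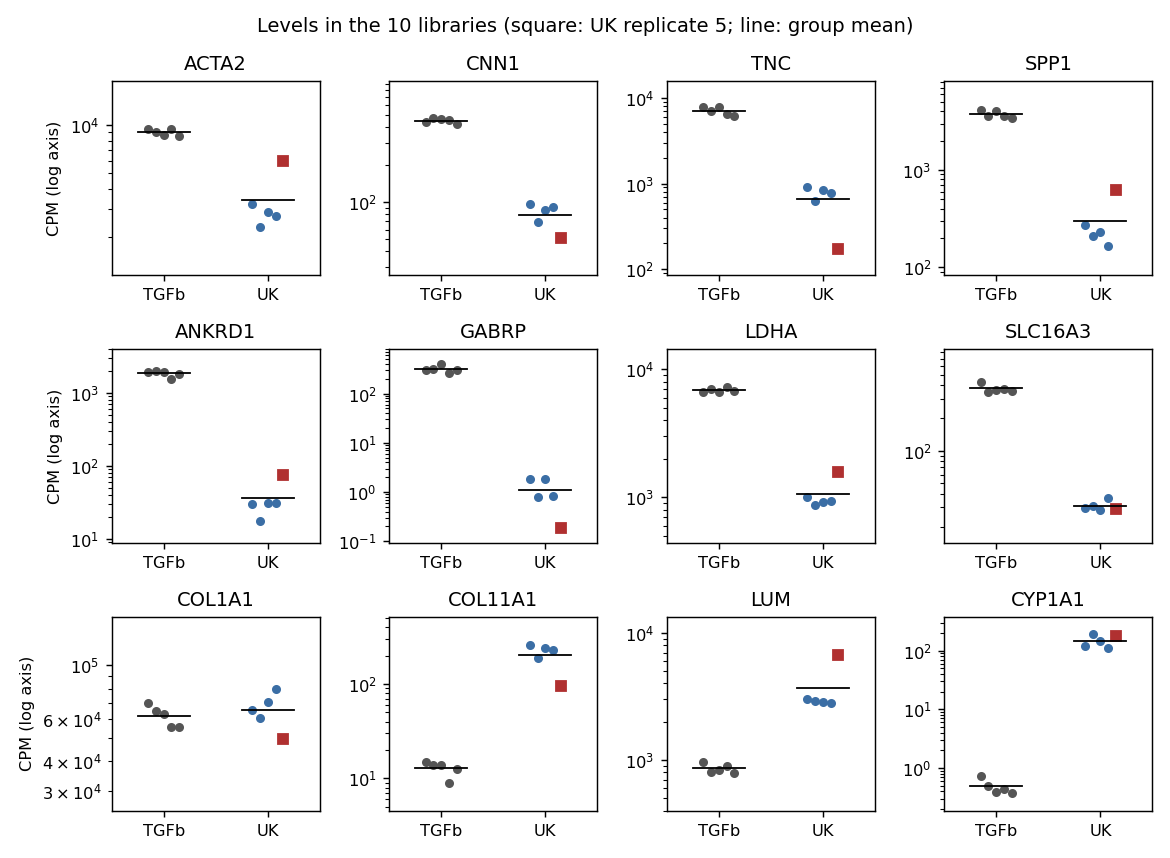
CPM on log axes of 12 genes in the 5 TGFb and 5 UK libraries, 1 point per library, with group means as lines and UK replicate 5 as a red square. ACTA2, CNN1, TNC, SPP1, ANKRD1, GABRP, LDHA and SLC16A3 lie lower in every UK library than in every TGFb library, COL11A1, LUM and CYP1A1 lie higher, and COL1A1 overlaps.

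The main collagen transcripts of scar did not pass the test, while most of the measured genes that modify and crosslink collagen fell. COL1A1 measured 69437, 64282, 62654, 55342 and 55183 CPM in TGFb replicates 1 to 5, against 65072, 60622, 70108 and 79727 in UK replicates 1 to 4 and 49593 in UK replicate 5. The ranges overlapped, with UK replicate 5 lowest of all 10 libraries. COL1A1, a chain of type I collagen, had a log2 fold change of 0.083 ± 0.203 (adjusted p = 0.758), and 0.17 ± 0.188 without UK replicate 5 (adjusted p = 0.435). COL1A2, its partner chain, had one of 0.20 ± 0.334 (adjusted p = 0.651), and 0.28 ± 0.311 without UK replicate 5 (adjusted p = 0.433). COL3A1, of type III collagen, had one of -0.11 ± 0.244 (adjusted p = 0.732), and -0.086 ± 0.109 without UK replicate 5 (adjusted p = 0.489). None of the 3 passed in either fit. Without UK replicate 5, COL1A1 was called higher with library totals alone, at 0.45 (adjusted p = 0.0179), and COL1A2 was called higher in a fit of only these 2 groups. COL1A2 averaged 45005 ± 1432 CPM (SD) in UK replicates 1 to 4, each above every TGFb library (37158 ± 1767). UK replicate 5 held 33025 CPM of it, below every TGFb library. Of the collagen list, 3 of 23 tested members were higher and 12 lower (5 and 12 of 25 without UK replicate 5), with a median of -0.51 (-0.32 without UK replicate 5). Falls were found for COL14A1 (-2.38 ± 0.205 and -2.18 ± 0.102) and COL15A1 (-1.85 ± 0.149 and -1.80 ± 0.128), collagens that associate with fibrils and basement membranes, for COL6A3 (-1.55 ± 0.196 and -1.39 ± 0.146), a beaded filament chain, and for COL4A1 (-1.42 ± 0.228 and -1.23 ± 0.148), a basement membrane chain. COL11A1 had levels of 14.9, 14, 13.9, 9.03 and 12.7 CPM in TGFb and of 260.1, 188, 239.8 and 231 in UK replicates 1 to 4, with UK replicate 5 at 95.3. This minor fibrillar collagen, which sets fibril width, rose by 3.97 ± 0.29 (adjusted p = 6.73e-11), and 4.15 ± 0.136 without UK replicate 5 (adjusted p = 2.88e-21). COL4A5 (1.79 ± 0.199 and 1.97 ± 0.127), another basement membrane chain, also rose.

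Of the genes for collagen processing and crosslinking, 3 of 31 tested members were higher and 22 lower (2 and 25 without UK replicate 5), with a median of -1.05 (-0.92 without UK replicate 5). PLOD2 stood at 584, 525, 595, 485 and 514 CPM in the TGFb libraries, at 80.3, 64.3, 85 and 82.9 in UK replicates 1 to 4 and at 74.5 in UK replicate 5. PLOD2 encodes the lysyl hydroxylase of the telopeptides, which directs the crosslinks typical of fibrosis, and its groups were far apart. PLOD2 changed by -2.80 ± 0.0962 (adjusted p = 1.4e-16), and -2.79 ± 0.0889 without UK replicate 5 (adjusted p = 1.44e-21). LOXL1 (-2.18 ± 0.177 and -2.50 ± 0.0841) and LOXL2 (-2.33 ± 0.133 and -2.20 ± 0.0821), lysyl oxidase-like enzymes, and TGM2 (-2.76 ± 0.166 and -2.62 ± 0.111), a transglutaminase, fell as well. P3H2 (1.35 ± 0.09 and 1.24 ± 0.0546), a prolyl 3-hydroxylase, and CRTAP (0.47 ± 0.0894 and 0.58 ± 0.0472), a cofactor of such an enzyme, rose. CRTAP in UK replicate 5 (132 CPM) lay within the TGFb range (131 to 138 CPM).

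Most secreted adhesive glycoproteins were lower. Of the matricellular list, 5 of 28 tested members were higher and 19 lower (6 and 20 without UK replicate 5), with a median of -0.85 (-0.77 without UK replicate 5). SPP1 measured 4112, 3581, 4026, 3597 and 3445 CPM in TGFb replicates 1 to 5, against 273, 207, 229.8 and 166 in UK replicates 1 to 4 and 623 in UK replicate 5. SPP1, osteopontin, changed by -3.65 ± 0.253 (adjusted p = 3e-11), and -4.10 ± 0.133 without UK replicate 5 (adjusted p = 2.45e-21). TGFBI had levels of 269.8, 225, 267, 253 and 216 CPM in TGFb and of 34.3, 29.2, 28.8 and 23.7 in UK replicates 1 to 4, with UK replicate 5 at 48. TGFBI encodes a TGF-beta-induced stromal protein whose mutations cause corneal dystrophies, and all UK libraries were below all TGFb libraries. TGFBI changed by -2.91 ± 0.233 (adjusted p = 3.22e-10), and -3.09 ± 0.149 without UK replicate 5 (adjusted p = 2.26e-17). CILP (-2.46 ± 0.173 and -2.34 ± 0.0997) and THBS3 (-1.24 ± 0.0937 and -1.16 ± 0.072), a thrombospondin, fell, while SMOC2 (2.71 ± 0.259 and 2.7 ± 0.217) and FBLN1 (1.27 ± 0.163 and 1.17 ± 0.133), fibulin 1, rose.

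Among keratocyte genes and the small leucine-rich proteoglycans that space collagen fibrils in the clear stroma, more were higher than lower. Of the keratocyte and stromal list, 9 of 20 tested members were higher and 4 lower (12 and 5 of 21 without UK replicate 5), with a median of 0.38 (0.46 without UK replicate 5). LUM stood at 961, 809.6, 833, 897 and 795 CPM in the TGFb libraries, at 3032, 2927, 2885 and 2784 in UK replicates 1 to 4 and at 6716 in UK replicate 5. Lumican, its product, is a keratan sulfate proteoglycan of the stroma, and the groups did not overlap. LUM changed by 2.09 ± 0.267 (adjusted p = 5.76e-07), and 1.76 ± 0.189 without UK replicate 5 (adjusted p = 1.63e-09). PODN (1.82 ± 0.143 and 1.68 ± 0.101), podocan, PRELP (1.45 ± 0.291 and 1.71 ± 0.121) and DCN (0.98 ± 0.0988 and 1.04 ± 0.0849), decorin, rose. ALDH3A1 measured 0.121, 0.426, 0.169, 0.448 and 0.311 CPM in TGFb replicates 1 to 5, against 8.81, 8.24, 6.79 and 7.94 in UK replicates 1 to 4 and 26.9 in UK replicate 5. This aldehyde dehydrogenase is a corneal crystallin, and no TGFb library came near the lowest UK library. The gene is also counted in the list of aryl hydrocarbon receptor targets given below. ALDH3A1 changed by 5.29 ± 0.409 (adjusted p = 1.83e-10), and 4.76 ± 0.226 without UK replicate 5 (adjusted p = 1.42e-17). Falls were found for VCAN (-2.96 ± 0.301 and -2.70 ± 0.148), versican, a large proteoglycan of provisional matrix, and ANGPTL7 (-1.14 ± 0.204 and -1.19 ± 0.195).

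The metalloproteinase and inhibitor list was split, with 11 of 27 tested members higher and 12 lower, and 12 and 11 without UK replicate 5. All tested genes had 28.0% higher and 22.5% lower (35.9% and 35.0% without UK replicate 5). PLAUR (-1.78 ± 0.184 and -2.13 ± 0.073), the urokinase receptor, ADAMTS4 (-4.09 ± 0.198 and -4.15 ± 0.208), an aggrecanase, and ADAMTS12 (-1.90 ± 0.376 and -1.60 ± 0.0973) fell. CTSK (3.29 ± 0.208 and 2.94 ± 0.0976), cathepsin K, a collagen-degrading lysosomal protease, and RECK (1.24 ± 0.0961 and 1.29 ± 0.0827), a membrane inhibitor of metalloproteinases, rose.

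Among genes that TGFb1 induces directly, and among genes of the cell's mechanical response, more were lower than higher. Of the immediate TGF-beta targets, 2 of 30 tested members were higher and 14 lower (3 and 17 without UK replicate 5), with a median of -0.50 (-0.66 without UK replicate 5). Besides TGFBI, LTBP2 (-2.26 ± 0.169 and -2.10 ± 0.114), a latent TGF-beta binding protein, and CCN2 (-1.25 ± 0.301 and -1.89 ± 0.155), connective tissue growth factor, fell. CCN2 in UK replicate 5 (8735 CPM) nevertheless lay within the TGFb range (7625 to 9469 CPM). SPHK1 (2.85 ± 0.301 and 2.35 ± 0.168), a sphingosine kinase, and TWIST1 (1.27 ± 0.104 and 1.24 ± 0.102) rose. Of the ligands, receptors and SMADs, 9 of 39 tested members were higher and 13 lower (15 and 15 without UK replicate 5), and by library totals alone 11 rose and 12 fell (23 and 13 without UK replicate 5). INHBA had levels of 295, 279.7, 301, 251 and 263 CPM in TGFb and of 24.2, 17.2, 26.5 and 29.2 in UK replicates 1 to 4, with UK replicate 5 at 55.9. INHBA, the activin A subunit, changed by -3.19 ± 0.201 (adjusted p = 5.32e-12), and -3.52 ± 0.106 without UK replicate 5 (adjusted p = 4.01e-22). FSTL3 (-2.25 ± 0.249 and -2.78 ± 0.0937), an activin inhibitor, and SMURF2 (-0.96 ± 0.112 and -0.82 ± 0.0525), a ubiquitin ligase for receptors, fell. TGFBR3 (1.73 ± 0.312 and 2.01 ± 0.0703), betaglycan, and ACVRL1 (2.42 ± 0.108 and 2.36 ± 0.0951), a type I receptor for BMP9, rose.

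Of the YAP, TEAD and SRF list of mechanosensitive genes, 2 of 31 tested members were higher and 19 lower (1 and 21 without UK replicate 5), with a median of -0.82 (-0.64 without UK replicate 5). ANKRD1 stood at 1974, 2031, 1931, 1569 and 1848 CPM in the TGFb libraries, at 30.2, 17.5, 31 and 31 in UK replicates 1 to 4 and at 74.1 in UK replicate 5. ANKRD1 encodes a titin-binding ankyrin repeat protein and is a standard YAP target, and UK replicate 5 held more of it than the other UK libraries. ANKRD1 changed by -5.68 ± 0.458 (adjusted p = 3.66e-10), and -6.09 ± 0.228 without UK replicate 5 (adjusted p = 5.93e-20). DLC1 (-1.62 ± 0.106 and -1.52 ± 0.0693), a RhoGAP, AXL (-1.34 ± 0.245 and -1.09 ± 0.0715) and GADD45B (-2.07 ± 0.306 and -2.60 ± 0.19) fell. WWTR1 (0.64 ± 0.256 and 0.90 ± 0.0502), which encodes the co-activator TAZ, rose, a call lost when any 1 library other than UK replicate 5 was left out. Of the integrins and focal adhesion genes, 2 of 32 tested members were higher and 21 lower (7 and 23 without UK replicate 5), with a median of -1.02 (-0.96 without UK replicate 5). ACTN1 (-2.03 ± 0.184 and -1.83 ± 0.0781), alpha actinin 1, ITGA8 (-2.88 ± 0.144 and -2.79 ± 0.12), a partner of integrin beta 1 on stromal cells, ITGA3 (-1.67 ± 0.0821 and -1.64 ± 0.0731) and LIMS2 (-1.27 ± 0.139 and -1.52 ± 0.0581) fell. ITGA10 (2.63 ± 0.256 and 2.82 ± 0.171), a collagen receptor chain, and ITGB8 (0.63 ± 0.229 and 0.81 ± 0.17) rose. The call of ITGB8 was lost on leaving out UK replicate 1 or 4 or TGFb replicate 4 or 5.

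The transcripts of the carrier that UK-5099 inhibits did not pass the test with all libraries. MPC1 measured 31.9, 28.8, 31.6, 30.7 and 28.9 CPM in TGFb replicates 1 to 5, against 31.6, 32.5, 32.2 and 31.6 in UK replicates 1 to 4 and 75.8 in UK replicate 5. MPC2 had levels of 48.2, 54.9, 52.1, 51.9 and 51.1 CPM in TGFb and of 47.4, 48.7, 45.6 and 45.9 in UK replicates 1 to 4, with UK replicate 5 at 266. UK replicate 5 alone lay outside the range of the other 9 libraries for MPC1, and far above it for MPC2. MPC1 had a log2 fold change of 0.42 ± 0.175 (adjusted p = 0.0506), and 0.075 ± 0.0669 without UK replicate 5 (adjusted p = 0.324). MPC2 had one of 0.81 ± 0.346 (adjusted p = 0.055), and -0.14 ± 0.0576 without UK replicate 5 (adjusted p = 0.0342), so that it fell in the fit without that library and its direction turned. With library totals alone MPC1 and MPC2 were higher in UK over all libraries. Without UK replicate 5 under that scaling MPC1 was still called higher, and MPC2 was at 0.14 (adjusted p = 0.0517), so that the fall of MPC2 turned with the scaling.

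Most glycolysis genes and the lactate exporter SLC16A3 fell. Of the glycolysis list, 2 of 14 tested members were higher and 11 lower (2 and 12 without UK replicate 5), with a median of -1.20 (-1.16 without UK replicate 5). TPI1 stood at 2851, 3152, 3016, 3406 and 3041 CPM in the TGFb libraries, at 381, 320.4, 331 and 339 in UK replicates 1 to 4 and at 1254 in UK replicate 5. TPI1, triose phosphate isomerase, changed by -2.56 ± 0.277 (adjusted p = 4.51e-08), and -3.17 ± 0.0948 without UK replicate 5 (adjusted p = 3.12e-22). GAPDH (-1.82 ± 0.159 and -2.10 ± 0.0837), ALDOA (-1.49 ± 0.104 and -1.64 ± 0.0651), aldolase A, and PFKFB3 (-2.75 ± 0.155 and -2.59 ± 0.0905), which makes the allosteric activator of phosphofructokinase, fell. ENO2 (0.68 ± 0.106 and 0.65 ± 0.101) and PFKFB4 (0.63 ± 0.19 and 0.77 ± 0.147) rose. LDHA measured 6627, 7079, 6651, 7224 and 6756 CPM in TGFb replicates 1 to 5, against 1002, 880.4, 919 and 939.9 in UK replicates 1 to 4 and 1585 in UK replicate 5. LDHA, the lactate dehydrogenase chain that turns pyruvate to lactate, had its highest UK level in replicate 5, well under the TGFb range. LDHA changed by -2.69 ± 0.125 (adjusted p = 2.5e-14), and -2.88 ± 0.0764 without UK replicate 5 (adjusted p = 2.12e-23). SLC16A3 had levels of 431, 348, 362, 371 and 356 CPM in TGFb and of 29.8, 30.7, 28.2 and 36.5 in UK replicates 1 to 4, with UK replicate 5 at 29.3. SLC16A3, the lactate exporter MCT4, changed by -3.59 ± 0.115 (adjusted p = 6.37e-17), and -3.57 ± 0.109 without UK replicate 5 (adjusted p = 4.83e-22), with UK replicate 5 inside the range of the other UK libraries.

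Of the wider list of pyruvate dehydrogenase, anaplerosis and lactate genes, 5 of 23 tested members were higher and 11 lower (4 and 14 without UK replicate 5), and by library totals alone 8 rose and 8 fell (10 and 11 without UK replicate 5). PDK1 (-2.21 ± 0.0904 and -2.16 ± 0.0773), a kinase that inactivates pyruvate dehydrogenase, and PCK2 (-0.56 ± 0.126 and -0.76 ± 0.0719), mitochondrial phosphoenolpyruvate carboxykinase, fell. PC (1.21 ± 0.0874 and 1.26 ± 0.0749), pyruvate carboxylase, rose. PDK4, another pyruvate dehydrogenase kinase, had 1 count in the TGFb libraries together and 35 in UK, a ratio of 30.7 with a 95% counting interval of 5.17 to 1249 (30.9, 5.16 to 1261, without UK replicate 5). Of the hypoxia list, which shares PDK1 and LDHA with these enzymes, 2 of 19 tested members were higher and 14 lower (2 and 14 without UK replicate 5), with a median of -1.16 (-1.19 without UK replicate 5). ANKRD37 (-1.98 ± 0.383 and -3.02 ± 0.112), VEGFA (-2.16 ± 0.234 and -1.92 ± 0.0871), vascular endothelial growth factor A, and HK2 (-1.92 ± 0.205 and -1.70 ± 0.0777), hexokinase 2, fell. CA12 (3.31 ± 0.218 and 3.27 ± 0.245), a carbonic anhydrase, and ANGPTL4 (2.79 ± 0.188 and 2.62 ± 0.149), a lipoprotein lipase inhibitor, rose.

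For the tricarboxylic acid cycle and the respiratory chain, the count of members called depended on UK replicate 5 and on the scaling. Of the cycle list, 1 of 18 tested members were higher and 4 lower (1 and 10 without UK replicate 5), and by library totals alone 9 rose and 0 fell (8 and 2 without UK replicate 5). DLST (-0.50 ± 0.109 and -0.37 ± 0.0487), IDH3A (-0.31 ± 0.0664 and -0.28 ± 0.0566) and SUCLG2 (-0.38 ± 0.117 and -0.24 ± 0.0517), subunits of cycle enzymes, fell, calls that were all lost with library totals alone. Of the nuclear oxidative phosphorylation list, 4 of 28 tested members were higher and 1 lower (1 and 19 without UK replicate 5), and by library totals alone 18 rose and 0 fell (5 and 5 without UK replicate 5). The median moved from 0.43 to -0.22 on leaving out UK replicate 5, which lay a median of 1.81 above the other UK libraries over this list. NDUFB3 stood at 24, 29.1, 26.8, 28.1 and 25.3 CPM in the TGFb libraries, at 23.6, 26.9, 25.7 and 22.9 in UK replicates 1 to 4 and at 176 in UK replicate 5. NDUFB3, a complex I subunit, had a log2 fold change of 1.03 ± 0.398 (adjusted p = 0.0339), and -0.10 ± 0.0811 without UK replicate 5 (adjusted p = 0.259), and its call was also lost on leaving out TGFb replicate 1, 3, 4 or 5. ATP5F1B measured 814, 804, 817, 845 and 815 CPM in TGFb replicates 1 to 5, against 549.8, 518, 489 and 464 in UK replicates 1 to 4 and 1085 in UK replicate 5. UK replicate 5 lay above the TGFb range and the other UK libraries below it. ATP5F1B, the catalytic beta subunit of ATP synthase, changed by -0.40 ± 0.152 (adjusted p = 0.0321), and -0.70 ± 0.0557 without UK replicate 5 (adjusted p = 3.11e-12). Its call over all libraries was lost on leaving out any of UK replicates 1 to 4 or TGFb replicate 4, and with library totals alone. COX8A (0.68 ± 0.182 and 0.34 ± 0.0765), a cytochrome oxidase subunit, was higher in both fits. Of the cytosolic ribosomal proteins, 8 of 22 tested members were higher and 0 lower (3 and 10 without UK replicate 5), with a median of 0.70 (-0.14 without UK replicate 5), and by library totals alone 15 rose and 0 fell (7 and 3 without UK replicate 5). UK replicate 5 lay a median of 2.29 above the others over the ribosomal list. RPL13 (1.14 ± 0.335 and 0.27 ± 0.0916) was called higher in both fits, while RPL24 was called in opposite directions, with 1.08 ± 0.424 (adjusted p = 0.0376), and -0.21 ± 0.0643 without UK replicate 5 (adjusted p = 0.0053). The call of RPL24 over all libraries was lost on leaving out any 1 TGFb library, and the call without UK replicate 5 was lost with library totals alone. No direction is given here for these lists.

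Most tested genes of glutamine, serine and folate metabolism fell. Of the glutamine and glutamate list, 3 of 19 tested members were higher and 14 lower (3 and 15 without UK replicate 5), with a median of -0.73 (-0.70 without UK replicate 5). SLC1A5 had levels of 264, 235, 242, 231 and 211 CPM in TGFb and of 52.6, 58.6, 51.7 and 50.0 in UK replicates 1 to 4, with UK replicate 5 at 109. SLC1A5, the glutamine importer ASCT2, changed by -1.88 ± 0.15 (adjusted p = 3.22e-10), and -2.15 ± 0.0627 without UK replicate 5 (adjusted p = 1.97e-22). ASNS (-1.73 ± 0.132 and -1.93 ± 0.0803), asparagine synthetase, PSAT1 (-1.33 ± 0.169 and -1.64 ± 0.0754), a serine pathway transaminase, and SLC1A1 (-3.17 ± 0.226 and -2.98 ± 0.14), a glutamate importer, fell. GLUL (1.70 ± 0.126 and 1.57 ± 0.0961), glutamine synthetase, and SLC38A2 (0.64 ± 0.0859 and 0.69 ± 0.0743), a neutral amino acid importer, rose. Of the serine, glycine and folate list, 3 of 12 tested members were higher and 8 lower (3 and 8 without UK replicate 5), with a median of -1.35 (-1.39 without UK replicate 5). SHMT2 stood at 523, 523, 553, 565 and 524 CPM in the TGFb libraries, at 111, 129.9, 99.5 and 86.3 in UK replicates 1 to 4 and at 164 in UK replicate 5. SHMT2, the mitochondrial serine hydroxymethyltransferase, changed by -2.19 ± 0.116 (adjusted p = 2.6e-13), and -2.33 ± 0.0801 without UK replicate 5 (adjusted p = 6.97e-21). MTHFD2 (-1.83 ± 0.0876 and -1.88 ± 0.0779), MTHFD1L (-1.77 ± 0.0686 and -1.74 ± 0.0587) and PSPH (-1.37 ± 0.195 and -1.76 ± 0.0734), of the same mitochondrial folate and serine routes, fell, and TYMS (2.06 ± 0.255 and 1.52 ± 0.0851), thymidylate synthase, and SHMT1 (0.80 ± 0.18 and 0.82 ± 0.199), the cytosolic enzyme, rose. ASS1 measured 0.485, 0.852, 0.395, 0.97 and 0.871 CPM in TGFb replicates 1 to 5, against 20.5, 26.8, 18.2 and 20.0 in UK replicates 1 to 4 and 26.1 in UK replicate 5. ASS1, argininosuccinate synthetase of arginine synthesis, changed by 4.97 ± 0.209 (adjusted p = 4.85e-15), and 4.92 ± 0.21 without UK replicate 5 (adjusted p = 1.2e-18).

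Of the targets of ATF4, the transcription factor of the integrated stress response, 4 of 24 tested members were higher and 16 lower (4 and 18 without UK replicate 5), with a median of -0.91 (-0.99 without UK replicate 5). WARS1 had levels of 1588, 1541, 1485, 1821 and 1502 CPM in TGFb and of 221, 219, 187 and 175 in UK replicates 1 to 4, with UK replicate 5 at 203. WARS1, tryptophanyl-tRNA synthetase, changed by -2.98 ± 0.0955 (adjusted p = 6.37e-17), and -2.98 ± 0.0926 without UK replicate 5 (adjusted p = 7.68e-22). STC2 (-1.94 ± 0.114 and -1.84 ± 0.0791), stanniocalcin 2, and GARS1 (-1.56 ± 0.13 and -1.76 ± 0.0796), glycyl-tRNA synthetase, fell, and NUPR1 (1.12 ± 0.251 and 0.54 ± 0.069) and SLC3A2 (1.05 ± 0.189 and 0.73 ± 0.108) rose. Of the genes of the unfolded protein response, 1 of 22 tested members were higher and 11 lower (2 and 18 without UK replicate 5), with a median of -0.49 (-0.61 without UK replicate 5). HSP90B1 stood at 3155, 2867, 2915, 2846 and 2641 CPM in the TGFb libraries, at 1003, 979.6, 967 and 859.9 in UK replicates 1 to 4 and at 1500.4 in UK replicate 5. HSP90B1, the chaperone GRP94 of the endoplasmic reticulum, changed by -1.44 ± 0.133 (adjusted p = 3.3e-09), and -1.60 ± 0.102 without UK replicate 5 (adjusted p = 1.66e-14). CALR (-1.47 ± 0.125 and -1.64 ± 0.0861), calreticulin, PDIA3 (-0.96 ± 0.146 and -1.23 ± 0.0678), a disulfide isomerase, and ATF6 (-0.75 ± 0.0856 and -0.65 ± 0.0515) fell, and SYVN1 (0.53 ± 0.126 and 0.34 ± 0.0696), a ubiquitin ligase of the reticulum, rose.

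Lipid genes were mixed. Of the cholesterol list, 1 of 19 tested members were higher and 9 lower (1 and 12 without UK replicate 5), with a median of -0.49 (-0.52 without UK replicate 5). HMGCS1 (-0.82 ± 0.123 and -0.69 ± 0.078) and DHCR7 (-0.92 ± 0.102 and -0.88 ± 0.0843), enzymes of cholesterol synthesis, fell, and PMVK (1.52 ± 0.39 and 0.48 ± 0.113) rose. Of fatty acid synthesis and desaturation, 2 of 18 tested members were higher and 8 lower (4 and 11 without UK replicate 5), and by library totals alone 4 rose and 5 fell (6 and 5 without UK replicate 5). ELOVL5 (-1.68 ± 0.241 and -1.44 ± 0.0624), ELOVL6 (-1.40 ± 0.153 and -1.27 ± 0.113) and SCD (-1.33 ± 0.277 and -1.06 ± 0.0878), a desaturase, fell, and ACSL3 (0.55 ± 0.117 and 0.35 ± 0.0484) and SREBF1 (0.45 ± 0.167 and 0.63 ± 0.0918) rose. The call of SREBF1 was lost on leaving out UK replicate 2, 3 or 4 or TGFb replicate 3, 4 or 5. Of fatty acid oxidation, 9 of 21 tested members were higher and 6 lower (10 and 10 without UK replicate 5), and by library totals alone 11 rose and 2 fell (11 and 5 without UK replicate 5). SLC25A20 (0.83 ± 0.116 and 0.96 ± 0.0723), the carnitine carrier, CPT1B (0.98 ± 0.196 and 0.73 ± 0.133) and ECI2 (1.04 ± 0.245 and 0.48 ± 0.0683) rose, and CPT2 (-1.38 ± 0.0684 and -1.37 ± 0.0597) and EHHADH (-1.26 ± 0.0804 and -1.25 ± 0.0731) fell. PPARG itself, the receptor that troglitazone binds, had 0 counts in both groups. Of its targets and lipid droplet genes, 6 of 16 tested members were higher and 4 lower (9 and 5 without UK replicate 5). PPARA (2.19 ± 0.27 and 2.41 ± 0.161), a related receptor, LIPE (1.05 ± 0.131 and 1.16 ± 0.101), hormone-sensitive lipase, and PLIN4 (3.29 ± 0.351 and 3.44 ± 0.294), perilipin 4, rose, and FABP3 (-1.93 ± 0.353 and -2.81 ± 0.117) and UCP2 (-3.06 ± 0.388 and -3.38 ± 0.44) fell. FABP4, chosen after its values were seen, had 0 counts in TGFb and 140 in UK. Against a floor of 3 counts over the group it was at least 41.0-fold higher, and at least 23.9-fold without UK replicate 5.

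Most lysosomal genes were higher. Of the lysosome and autophagy list, 23 of 30 tested members were higher and 1 lower (26 and 1 without UK replicate 5), with a median of 0.65 (0.62 without UK replicate 5). GPNMB measured 12.3, 9.43, 9.81, 11.2 and 11.9 CPM in TGFb replicates 1 to 5, against 114, 118, 96.3 and 101 in UK replicates 1 to 4 and 37.7 in UK replicate 5. All UK libraries lay above all TGFb libraries. GPNMB, a lysosomal membrane glycoprotein, changed by 3.10 ± 0.196 (adjusted p = 5.57e-12), and 3.30 ± 0.082 without UK replicate 5 (adjusted p = 4e-24). SQSTM1 (2.02 ± 0.2 and 1.67 ± 0.101), the autophagy receptor p62, CTSS (1.74 ± 0.242 and 1.21 ± 0.0723), cathepsin S, and MCOLN1 (1.33 ± 0.137 and 1.11 ± 0.0692), a lysosomal calcium channel, rose, and WIPI1 (-0.27 ± 0.106 and -0.45 ± 0.0442) fell. The call of WIPI1 was lost on leaving out any of UK replicates 1 to 4 or TGFb replicate 2, 3 or 4, and with library totals alone. Of the NRF2 antioxidant list, 10 of 16 tested members were higher and 1 lower (10 and 5 without UK replicate 5), with a median of 0.56 (0.41 without UK replicate 5). SOD2 had levels of 41.3, 38.5, 36.6, 40.0 and 37.6 CPM in TGFb and of 242, 307, 269 and 271 in UK replicates 1 to 4, with UK replicate 5 at 87.7. SOD2, the mitochondrial superoxide dismutase, changed by 2.60 ± 0.21 (adjusted p = 3.66e-10), and 2.81 ± 0.0969 without UK replicate 5 (adjusted p = 7.38e-21). GSR (1.13 ± 0.0889 and 1.21 ± 0.0676), glutathione reductase, PRDX1 (2.21 ± 0.295 and 1.52 ± 0.0928) and CAT (0.74 ± 0.0638 and 0.78 ± 0.0509), catalase, rose, and GCLM (-0.42 ± 0.0705 and -0.44 ± 0.0636) fell. Of mitochondrial biogenesis and dynamics, 8 of 25 tested members were higher and 5 lower (8 and 10 without UK replicate 5), and by library totals alone 10 rose and 3 fell (12 and 5 without UK replicate 5). PINK1 (1.28 ± 0.112 and 1.15 ± 0.0754), a kinase that marks damaged mitochondria for removal, rose, and LONP1 (-1.34 ± 0.1 and -1.48 ± 0.0606), a matrix protease, fell. Of branched-chain amino acid breakdown, 5 of 18 tested members were higher and 2 lower (5 and 6 without UK replicate 5), and by library totals alone 10 rose and 2 fell (12 and 2 without UK replicate 5), with BCAT1 (-1.62 ± 0.114 and -1.50 ± 0.0697), the first transaminase, among those that fell.

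Most mitosis genes were lower, while replication genes went both ways. Of the G2 and M list, 3 of 37 tested members were higher and 25 lower (3 and 27 without UK replicate 5), with a median of -1.28 (-1.15 without UK replicate 5). TOP2A stood at 13.5, 12.1, 12.6, 13.2 and 13 CPM in the TGFb libraries, at 2.9, 2.99, 3.19 and 3.07 in UK replicates 1 to 4 and at 1.92 in UK replicate 5. TOP2A, the mitotic topoisomerase, changed by -2.17 ± 0.141 (adjusted p = 9.22e-12), and -2.08 ± 0.137 without UK replicate 5 (adjusted p = 3.62e-14). CDC20, the activator of the anaphase-promoting complex, had 161 counts in TGFb and 1 in UK, a ratio of 183 in favour of TGFb with a 95% counting interval of 32.4 to 7284. That 1 count was in UK replicate 5, and without it CDC20 was at least 53.8-fold lower in UK. Of the S phase list, 10 of 34 tested members were higher and 12 lower (13 and 14 without UK replicate 5), and by library totals alone 16 rose and 9 fell (16 and 11 without UK replicate 5). The TMM-scaled shares over all genes were 28.0% higher and 22.5% lower (35.9% and 35.0% without UK replicate 5). MCM5 (-2.30 ± 0.186 and -2.32 ± 0.207) and RRM2 (-2.53 ± 0.245 and -2.66 ± 0.275) fell, and CHAF1B (1.51 ± 0.106 and 1.43 ± 0.0989) rose with TYMS. Of the list of p53 targets and senescence genes, 7 of 18 tested members were higher and 6 lower (9 and 6 without UK replicate 5). CDKN1A measured 65.9, 69.6, 67, 76.7 and 73.8 CPM in TGFb replicates 1 to 5, against 203, 289, 233 and 226 in UK replicates 1 to 4 and 50.0 in UK replicate 5. UK replicates 1 to 4 lay above all TGFb libraries and UK replicate 5 below them. CDKN1A, the cyclin-dependent kinase inhibitor p21, changed by 1.5 ± 0.257 (adjusted p = 3.23e-05), and 1.75 ± 0.106 without UK replicate 5 (adjusted p = 4.58e-15). CCNG1 (0.72 ± 0.146 and 0.90 ± 0.0572) and MDM2 (0.74 ± 0.114 and 0.56 ± 0.0619) rose, and LMNB1 (-1.84 ± 0.114 and -1.73 ± 0.0715), lamin B1, fell. CCNG1 too was below the TGFb range (567 to 677 CPM) in UK replicate 5 (503 CPM).

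Growth factor and signalling genes shifted member by member. Of growth factors and their receptors, 16 of 32 tested members were higher and 7 lower (16 and 9 without UK replicate 5), with a median of 0.64 (0.28 without UK replicate 5). FGF7 had levels of 0.546, 0.426, 0.564, 0.224 and 0.684 CPM in TGFb and of 19.2, 9.36, 16.7 and 13.5 in UK replicates 1 to 4, with UK replicate 5 at 26.9. FGF7, keratinocyte growth factor, which stromal cells make for the epithelium, changed by 5.08 ± 0.356 (adjusted p = 3.36e-11), and 4.86 ± 0.272 without UK replicate 5 (adjusted p = 7.87e-16). FGF10 (2.02 ± 0.321 and 2.29 ± 0.114), of the same family, GHR (1.53 ± 0.154 and 1.68 ± 0.0907), the growth hormone receptor, and PDGFC (1.10 ± 0.133 and 1.24 ± 0.0821) rose, and HBEGF (-2.84 ± 0.183 and -2.81 ± 0.187) fell. For FGF10, UK replicate 5 (20.1 CPM) lay below every TGFb library (29.6 to 34.8 CPM). IGF1 stood at 15.3, 16.3, 14.3, 18.4 and 17.4 CPM in the TGFb libraries, at 7.61, 2.84, 6.17 and 4.42 in UK replicates 1 to 4 and at 1.74 in UK replicate 5. IGF1, insulin-like growth factor 1, changed by -1.82 ± 0.268 (adjusted p = 1.17e-05), and -1.64 ± 0.178 without UK replicate 5 (adjusted p = 7.23e-09). Of the Wnt list, 3 of 27 tested members were higher and 11 lower (6 and 13 without UK replicate 5), and by library totals alone 7 rose and 6 fell (7 and 10 without UK replicate 5). WNT2 (-1.07 ± 0.152 and -1.11 ± 0.122), FZD1 (-0.86 ± 0.156 and -0.69 ± 0.0811) and RYK (-0.78 ± 0.167 and -1.12 ± 0.0504), a ligand and receptors, fell, and SFRP1 (2.07 ± 0.378 and 2.36 ± 0.131) and APCDD1 (2.26 ± 0.243 and 2.36 ± 0.245), Wnt inhibitors, rose. Of the RAS, MAPK and G protein regulators, 10 of 30 tested members were higher and 8 lower (14 and 11 without UK replicate 5). Among all tested genes 28.0% were higher and 22.5% lower (35.9% and 35.0% without UK replicate 5). ETV1 (1.98 ± 0.315 and 2.25 ± 0.142), ETV4 (3.48 ± 0.229 and 3.37 ± 0.225) and SPRY2 (1.11 ± 0.13 and 1.14 ± 0.131), which respond to receptor tyrosine kinases, rose, and DUSP1 (-1.58 ± 0.373 and -2.39 ± 0.205), a MAPK phosphatase, fell. ETV1 in UK replicate 5 (3.39 CPM) was below every TGFb library (3.61 to 6.79 CPM). Of axon guidance and neural adhesion genes, 9 of 30 tested members were higher and 12 lower (13 and 13 without UK replicate 5), and by library totals alone 10 rose and 7 fell (15 and 9 without UK replicate 5). SEMA3F (1.99 ± 0.0754 and 1.97 ± 0.0648) and SEMA5A (2.18 ± 0.184 and 2.33 ± 0.137) rose, and SEMA3D (-2.16 ± 0.244 and -1.93 ± 0.111), EPHA4 (-2.60 ± 0.172 and -2.48 ± 0.159) and NCAM1 (-1.99 ± 0.3 and -1.76 ± 0.193) fell.

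Of the interferon list, 10 of 26 tested members were higher and 4 lower (11 and 5 without UK replicate 5), with a median of 0.45 (0.35 without UK replicate 5). IFIH1 (1.47 ± 0.102 and 1.38 ± 0.0901), a sensor of viral RNA, MX1 (1.19 ± 0.151 and 1.05 ± 0.143) and SAMHD1 (0.91 ± 0.0863 and 0.95 ± 0.0734) rose, and PARP14 (-0.80 ± 0.217 and -0.58 ± 0.134) fell. Inflammatory genes were split, and of that list 9 of 25 tested members were higher and 8 lower (10 and 9 without UK replicate 5). Over all tested genes 28.0% were higher and 22.5% lower (35.9% and 35.0% without UK replicate 5). C1S (2.44 ± 0.216 and 2.08 ± 0.107), a complement protease, and TNFSF10 (3.44 ± 0.312 and 3.64 ± 0.23), the death ligand TRAIL, rose. PTGS2 measured 124, 109.5, 111, 89.3 and 129 CPM in TGFb replicates 1 to 5, against 9.85, 7.16, 9.87 and 12.1 in UK replicates 1 to 4 and 3.48 in UK replicate 5. PTGS2, the inducible cyclooxygenase, changed by -3.71 ± 0.228 (adjusted p = 3.47e-12), and -3.53 ± 0.152 without UK replicate 5 (adjusted p = 1.59e-18).

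**Figure D4:**
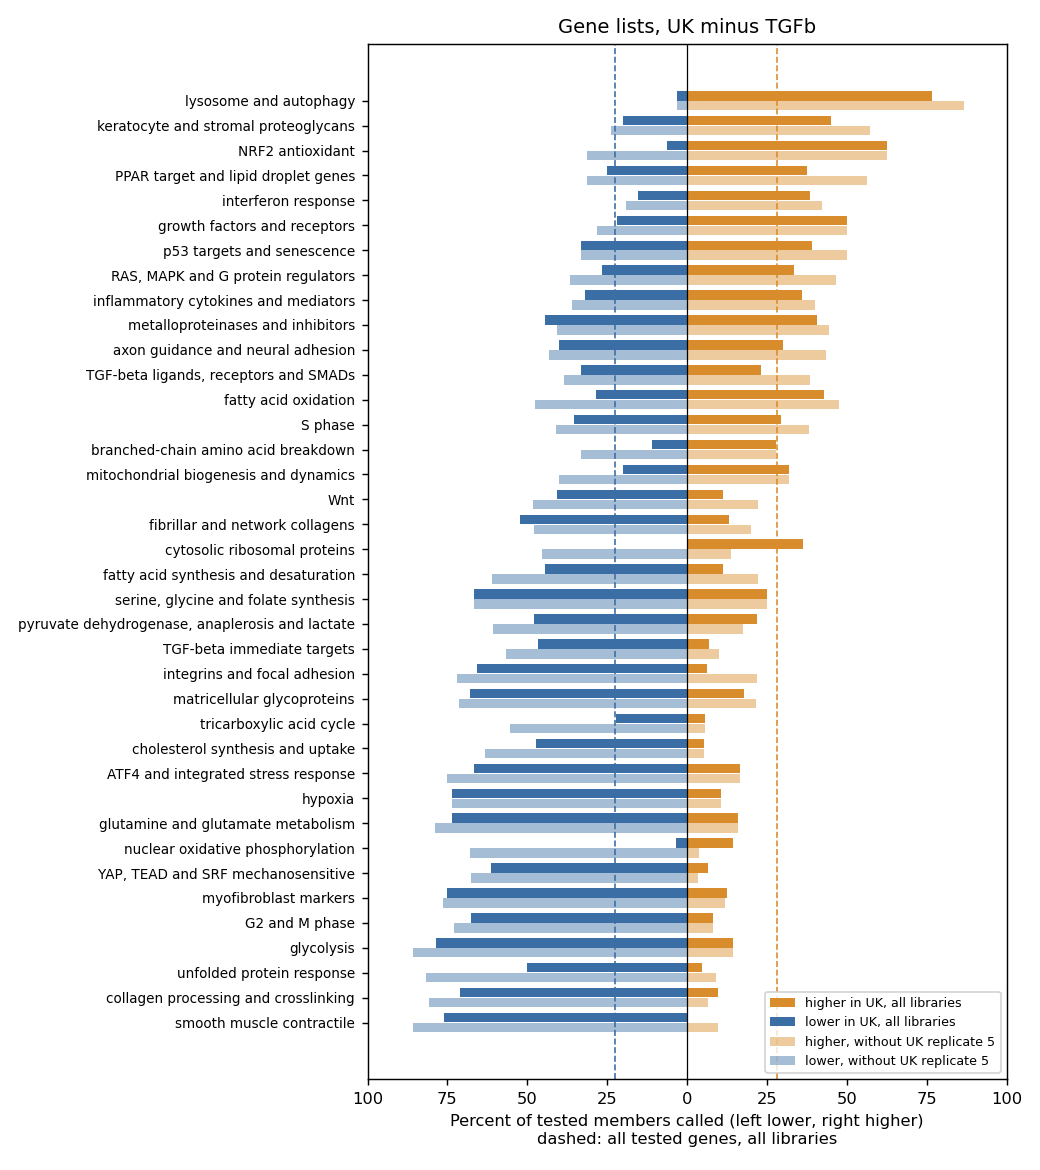
Percent of each gene list's tested members called in UK against TGFb at an adjusted p under 0.05, cell type markers and short lists aside. Orange bars (right) are members higher in UK and blue bars (left) members lower, with all libraries (dark) or without UK replicate 5 (light). Dashed lines mark the shares over all tested genes with all libraries, 28.0% and 22.5%. They do not apply to the light bars, for which the shares over all genes were 35.9% higher and 35.0% lower. Of the lists drawn, lysosome and autophagy genes reach furthest to the right (23 of 30), and smooth muscle, glycolysis and myofibroblast genes reach far to the left.

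Among genes whose higher group averaged 10 CPM or more and whose libraries did not overlap, the largest rise was that of CYP1A1, a cytochrome P450 and a standard target of the aryl hydrocarbon receptor, a ligand-activated transcription factor. CYP1A1 had levels of 0.728, 0.487, 0.395, 0.448 and 0.373 CPM in TGFb and of 119, 189.8, 146 and 112 in UK replicates 1 to 4, with UK replicate 5 at 175. All UK libraries exceeded all TGFb libraries, and UK replicate 5 lay within the range of the other UK libraries. CYP1A1 changed by 8.24 ± 0.301 (adjusted p = 4.38e-16), and 8.17 ± 0.264 without UK replicate 5 (adjusted p = 1.97e-21). A list of that receptor's targets, drawn up after CYP1A1 was seen and so given no weight of its own, had 4 of 6 tested members higher and none lower, and 5 higher without UK replicate 5. ALDH3A1, also on the keratocyte list, was among those higher. CYP1B1 stood at 29.9, 32.6, 34.6, 30.5 and 36.3 CPM in the TGFb libraries, at 395, 454, 419.9 and 497 in UK replicates 1 to 4 and at 62.5 in UK replicate 5. CYP1B1 was higher in every UK library, least so in UK replicate 5. CYP1B1 changed by 3.48 ± 0.33 (adjusted p = 5.32e-09), and 3.75 ± 0.117 without UK replicate 5 (adjusted p = 8.83e-22). TIPARP (0.75 ± 0.219 and 0.99 ± 0.0775) rose too. AHRR measured 19.6, 18.1, 17.8, 17.4 and 22 CPM in TGFb replicates 1 to 5, against 37.8, 39.9, 40.2 and 44.8 in UK replicates 1 to 4 and 2.29 in UK replicate 5. UK replicate 5 lay below the TGFb range and the others above it. AHRR, the receptor's repressor, had a log2 fold change of 0.80 ± 0.352 (adjusted p = 0.0604), and 1.10 ± 0.0705 without UK replicate 5 (adjusted p = 1.78e-14), so its call depended on UK replicate 5.

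The other genes with the largest rises by that rule had low levels in TGFb. RASGEF1B had levels of 0.425, 0.243, 0.113, 0.448 and 0.187 CPM in TGFb and of 15.5, 25.9, 20.0 and 17.6 in UK replicates 1 to 4, with UK replicate 5 at 16.9. RASGEF1B, a guanine exchange factor of small GTPases, changed by 6.09 ± 0.227 (adjusted p = 5.74e-16), and 6.14 ± 0.232 without UK replicate 5 (adjusted p = 7.13e-20). ACKR4 stood at 1.09, 1.34, 0.959, 0.597 and 0.995 CPM in the TGFb libraries, at 41, 38.1, 44.3 and 40.9 in UK replicates 1 to 4 and at 45.5 in UK replicate 5. ACKR4, an atypical receptor that scavenges chemokines, changed by 5.37 ± 0.177 (adjusted p = 7.87e-17), and 5.34 ± 0.127 without UK replicate 5 (adjusted p = 2.02e-24). RERG (5.54 ± 0.274 and 5.65 ± 0.213), a RAS-related growth inhibitor, SLC15A3 (5.45 ± 0.309 and 5.16 ± 0.226), a lysosomal peptide transporter, UAP1L1 (4.56 ± 0.198 and 4.62 ± 0.16), EPOR (4.41 ± 0.276 and 4.10 ± 0.17), the erythropoietin receptor, CPXM1 (4.27 ± 0.183 and 4.05 ± 0.117) and PELI3 (4.18 ± 0.363 and 3.71 ± 0.228) completed the 12 with CYP1A1, ALDH3A1, FGF7 and ASS1.

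The largest fall by the same rule was that of GABRP, the pi subunit of GABA type A receptors. GABRP measured 299.5, 316, 407, 261 and 299.7 CPM in TGFb replicates 1 to 5, against 1.86, 0.784, 1.8 and 0.812 in UK replicates 1 to 4 and 0.183 in UK replicate 5. GABRP changed by -8.12 ± 0.377 (adjusted p = 2.28e-14), and -7.94 ± 0.178 without UK replicate 5 (adjusted p = 6.53e-25), with UK replicate 5 lowest. ALPK2 had levels of 30.7, 33.1, 31.9, 32.1 and 24.3 CPM in TGFb and of 0.657, 0.784, 0.926 and 1.04 in UK replicates 1 to 4, with UK replicate 5 at 0.549. ALPK2, an alpha kinase, changed by -5.22 ± 0.222 (adjusted p = 5.44e-15), and -5.14 ± 0.176 without UK replicate 5 (adjusted p = 6.82e-21). NR4A1 stood at 36.4, 31.7, 44.2, 55.8 and 99.5 CPM in the TGFb libraries, at 2.3, 2.89, 3.24 and 3.43 in UK replicates 1 to 4 and at 2.47 in UK replicate 5. The TGFb libraries were spread widely, all above UK. NR4A1, an immediate early nuclear receptor, changed by -4.21 ± 0.323 (adjusted p = 1.63e-10), and -4.16 ± 0.297 without UK replicate 5 (adjusted p = 2.23e-13). CASP14 (-5.33 ± 0.312 and -5.13 ± 0.186), DISP3 (-4.91 ± 0.301 and -4.65 ± 0.105), TSPAN18 (-4.47 ± 0.355 and -4.19 ± 0.108), DHRS3 (-4.46 ± 0.189 and -4.31 ± 0.153), a retinal reductase, ADGRF4 (-4.36 ± 0.154 and -4.39 ± 0.128), DPYS (-4.29 ± 0.297 and -4.71 ± 0.198), a pyrimidine-degrading enzyme, and GALNT6 (-4.12 ± 0.147 and -4.28 ± 0.105) were among the 12, as was ANKRD1.

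The UK group was also set beside the other treatments of day 5. Troglitazone was given at 7.5 uM and UK-5099 at 30 uM, so the values stand side by side at doses that differ. The comparisons of UK, Trog and TrogGW with TGFb share the TGFb libraries, and the differences were therefore tested directly between the treatments. UK differed from Trog in 6534 genes (61.1%), 3517 higher (32.9%) and 3017 lower (28.2%), and in 8111 without UK replicate 5 (75.1%), 4017 higher (37.2%) and 4094 lower (37.9%). Library totals alone gave 1790 higher and 5339 lower (2114 and 6551 without UK replicate 5). UK differed from TrogGW in 7277 genes (68.0%), 3523 higher (32.9%) and 3754 lower (35.1%), and in 8796 without UK replicate 5 (81.5%), 3986 higher (36.9%) and 4810 lower (44.5%). Library totals alone gave 1669 higher and 6528 lower (1884 and 7623 without UK replicate 5). Some of the largest changes from TGFb were shared with Trog. In Trog minus TGFb with all libraries, GABRP (-10.9 ± 0.444), ANKRD1 (-10.2 ± 0.564), ALPK2 (-5.03 ± 0.213) and GALNT6 (-3.89 ± 0.142) also fell. ASS1 (6.39 ± 0.214), CPXM1 (3.74 ± 0.18) and EPOR (3.32 ± 0.273) also rose there. DHRS3 fell less in Trog (-1.07 ± 0.152), and ACKR4 went the other way (-2.45 ± 0.253).

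Most matrix and contractile genes were higher in UK than in either troglitazone group. COL1A1 stood at 65025 ± 11175 CPM in UK, at 1130.0 ± 270.2 in Trog and at 815 ± 316 in TrogGW (SD, n = 5), against 61380.0 ± 6120.3 in TGFb and 43666 ± 5067 in FB. COL1A1 was higher in UK than in Trog by 5.85 ± 0.25 and 5.93 ± 0.223 on the log2 scale (adjusted p = 3.95e-15 and 3.02e-20), without UK replicate 5 in the second value, and than in TrogGW by 6.32 ± 0.256 and 6.41 ± 0.228. ACTA2 stood at 3408 ± 1464 CPM in UK, 269.9 ± 73.6 in Trog and 9.38 ± 11.5 in TrogGW, with 1942 ± 146 in FB. It was higher in UK than in Trog by 3.66 ± 0.508 and 3.36 ± 0.365, and than in TrogGW by 8.51 ± 0.636 and 8.21 ± 0.46. Of the 23 tested collagens, the test of UK against Trog gave 19 higher and 0 lower in UK (20 and 0 of 25 without UK replicate 5), and of the myofibroblast list 12 higher and 2 lower in UK (13 and 3 of 17 without UK replicate 5). Against TrogGW the same lists gave 22 higher and 1 lower in UK (22 and 2 of 25 without UK replicate 5) and 12 higher and 1 lower in UK (15 and 2 of 17 without UK replicate 5). The cholesterol genes went the same way, with 14 higher and 1 lower in UK (17 and 1 without UK replicate 5) against Trog.

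Most stress genes of protein folding were lower in UK than in Trog. HSP90B1 stood at 1062 ± 251 CPM in UK, 6980.1 ± 1056 in Trog, 3251 ± 452 in TrogGW and 2885 ± 184 in TGFb. The difference of UK from Trog was -2.72 ± 0.139 and -2.87 ± 0.108. Of the same folding genes, the test of UK against Trog gave 0 higher and 17 lower in UK (0 and 22 without UK replicate 5), and of the ATF4 list 3 higher and 20 lower in UK (2 and 21 without UK replicate 5). CYP1A1 stood at 6.48 ± 2.65 CPM in Trog, 6.49 ± 1.35 in TrogGW and 7.65 ± 1.19 in FB, and was higher in UK than in Trog by 4.51 ± 0.234 and 4.45 ± 0.174. In glycolysis the direct test went both ways, with 5 of 14 tested members higher and 5 lower in UK (5 and 7 without UK replicate 5). In that test 32.9% of all genes were higher and 28.2% lower (37.2% and 37.9% without UK replicate 5). LDHA did not pass the test of UK against Trog, with 0.088 ± 0.118 and -0.10 ± 0.0694 (adjusted p = 0.536 and 0.2), while SLC16A3 was lower in UK, with -0.95 ± 0.106 and -0.92 ± 0.102 (adjusted p = 5.23e-08 and 2.13e-09).

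**Figure D5:**
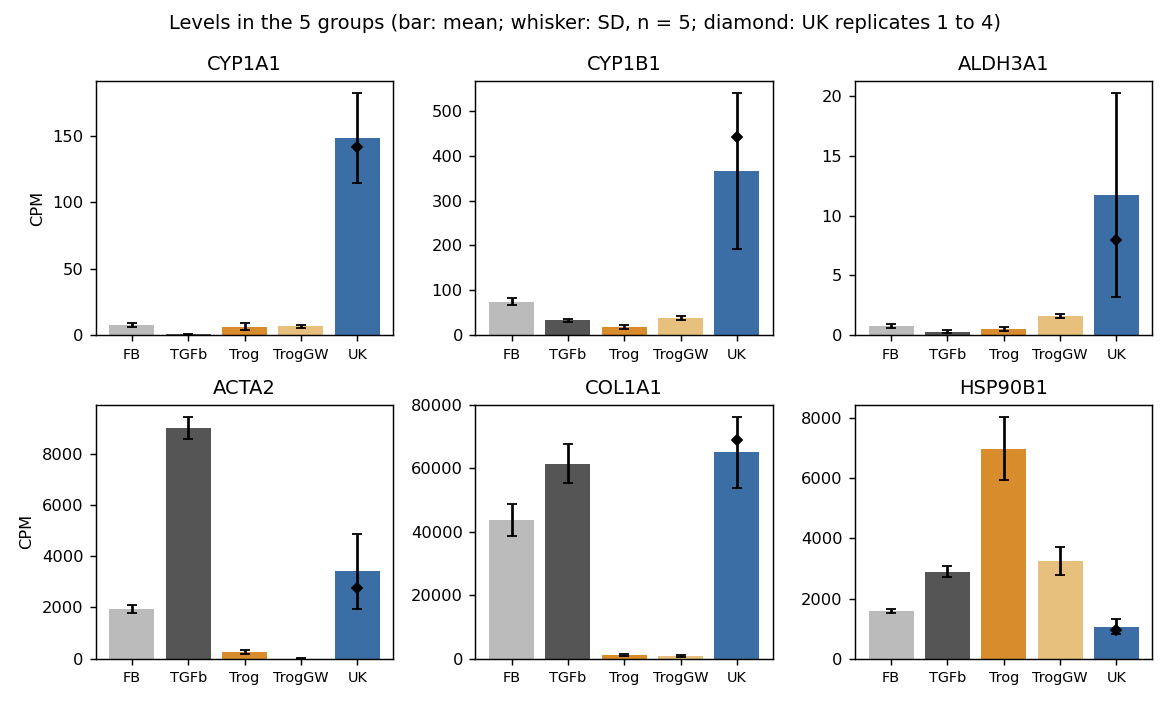
Mean CPM (bars, from 0) ± SD of 6 genes in the 5 groups, n = 5 libraries each, with the mean of UK replicates 1 to 4 as a diamond. CYP1A1 is highest in UK, ACTA2 and COL1A1 are higher in UK than in Trog and TrogGW, and HSP90B1 is lowest in UK and highest in Trog.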

How the data were processed

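Per the labels' protocols, libraries of polyadenylated RNA came from a TruSeq kit that marks strand and were run on a NovaSeq. Salmon 1.5.2, featureCounts, Subread 2.0.1, STAR 2.7.9a and fastp 0.23.1 are listed in the submitters' processing notes. The sources used here do not give the build, the annotation or the strand setting, so antisense partners may share reads. Deposited by the authors were raw integer counts per gene symbol, 1 table per sample and 13949 symbols each, with depths of 14.8 to 25.2 M counts.

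Counts of all 25 libraries were fitted in R 4.3.3 with edgeR 4.0.16, with TMM scaling, 1 mean per group and edgeR's expression filter (minimum count 10, minimum total 15). Quasi-likelihood F tests were adjusted by the Benjamini-Hochberg method over all tested genes, and a gene was called at an adjusted p under 0.05. SE was taken as the size of the log2 fold change divided by the root of F. CPM are counts per M of the TMM-scaled library total. The code was tested on simulated data. Alternatives were DESeq2 1.42.0, other scalings, filters, groups in the fit, a block for replicate number and each of the 10 libraries left out. The combinations of library totals, DESeq2 or the block with leaving out UK replicate 5 were chosen after seeing the data. Samples with the same replicate number did not deviate together (correlations of -0.16 to -0.00243 between UK and TGFb), so the numbers were not taken as pairs. RefSeq served for genomic spans only, for 10619 of 10699 tested genes.

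The members and the 46 gene lists were chosen with earlier results of these data known. Of 1196 listed genes, 1005 were in the files and 909 were tested. Genes were named by a rule: MPC1, MPC2, ACTA2 and PPARG, the 12 largest rises and 12 largest falls that were called with and without UK replicate 5, at 10 CPM or more in the higher group and without overlap, and up to 4 members of each list called in its main direction and 2 in the other, by the lowest p without UK replicate 5. Not every gene it selects is printed. The genes COL1A1, COL1A2, COL3A1, LUM, IGF1, ACTC1, ACTG2, AHRR and FABP4 lie outside it and were chosen with their values seen. Counting intervals and floors cover counting error only.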

Additional observations from a re-analysis of the deposited data

Results flagged for a closer look

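Within groups of 5 libraries, some sets of values had a highest or lowest library far from the next. The limit was 0.71 of the group's whole range, the Dixon limit for 5 samples. It was passed in 99 of 426 sets in UK or TGFb, of the named genes, library totals and numbers of genes with a count. Chance flags about 1 in 20 single sets, but these sets share libraries and are not independent. UK replicate 5 was the library in 85 of the 99, the highest in 58 and the lowest in 27. The share of the group's range that separated UK replicate 5 from the next library was 1.00 for CDC20, 0.99 for MPC2 and 0.98 for MPC1, RPL24 and S100A4. It was 0.97 for NDUFB3, 0.96 for ANKRD37 and PMVK and 0.95 for CTSS and RPL13. The same share was 0.94 for C1S, FABP3 and LUM, 0.93 for EGFL7 and TPI1 and 0.92 for WIPI1. Further down, it was 0.91 for FSTL3 and NUPR1, 0.90 for ALDH3A1, P3H2 and PRDX1 and 0.89 for ECI2, EPOR, MCOLN1 and TYMS. Next came 0.88 for COX8A, PELI3 and RYK, 0.87 for FABP4 and PDIA3 and 0.86 for ACSL3, ATP5F1B, CPXM1 and PLAUR. Then came 0.85 for ALDOA, GAPDH, LIMS2 and SLC1A5, 0.84 for CTSK and 0.83 for CCN2 and LDHA. After those came 0.82 for LOXL1 and SPHK1, 0.81 for CPT1B and 0.80 for SQSTM1. Then followed 0.79 for CSRP2, PINK1, PSPH and SYVN1, 0.78 for HSP90B1 and LONP1 and 0.77 for SPP1. Lower shares were 0.76 for ANKRD1, 0.75 for ACTA2, IFIH1, PSAT1 and SLC15A3 and 0.74 for DPYS. For genes where it was lowest, the share was 0.97 for FGF10, 0.88 for AXL, SUCLG2 and WWTR1, 0.84 for AHRR, DLST and HK2 and 0.81 for ELOVL5. There it was also 0.78 for TGFBR3, 0.77 for KDR, SMURF2, TOP2A and VEGFA, 0.76 for CCNG1, CYP1B1 and PRELP and 0.75 for ACTN1, COL1A2, LIPE, LOXL2 and TSPAN18. Such shares were further 0.74 for GHR, 0.73 for CRTAP, DISP3, GPNMB and PARP14 and 0.72 for SEMA3D. The other 14 sets had another library apart. These were TGFb replicate 5 for ALPK2 (lowest, 0.73), TGFb replicate 4 for ASNS (highest, 0.75), TGFb replicate 1 for ATF6 (highest, 0.80), TGFb replicate 4 for CA12 (lowest, 0.71) and TGFb replicate 4 for GARS1 (highest, 0.84). They were also TGFb replicate 4 for HK2 (lowest, 0.87), TGFb replicate 1 for ITGA3 (highest, 0.78), TGFb replicate 2 for KDR (lowest, 0.76), TGFb replicate 4 for PDK4 (highest, 1.00) and TGFb replicate 1 for SCD (highest, 0.80). The last were UK replicate 2 for SEMA3F (lowest, 0.73), TGFb replicate 1 for SLC16A3 (highest, 0.72), UK replicate 4 for SPRY2 (highest, 0.82) and TGFb replicate 3 for UAP1L1 (highest, 0.72).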

How the results depend on the processing

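The 5408 genes called between UK and TGFb became 5005 to 7657 when each of the 10 libraries was left out in turn. The upper end is the value without UK replicate 5, and the other 9 libraries gave 5005 to 5467. A fit of only these groups gave 3210 genes, 1702 higher and 1508 lower. Library totals alone gave 4549 higher and 1583 lower, and 5842 higher without UK replicate 5. Genes lower in UK ranged from 2256 to 3776 over the libraries left out. Without UK replicate 5 they numbered 3620 in a fit of only these groups, 3859 with DESeq2 and 3747 with a replicate block. The replicate block gave 5129 genes called. Replicate numbers were not taken as pairs, a choice that cannot exclude a small shared effect of donor or batch. Between UK and TGFb, no UK library correlated best with the TGFb library of its own number. In UK and Trog replicates 2 (0.126) and 4 (0.21) did so, and in UK and TrogGW replicate 5 (0.116), but not every pair exceeded 0.1 in either. DESeq2's scaling in edgeR, the DESeq2 Wald test and other filters gave 5236 to 5487.

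The direction of MPC2 turned without UK replicate 5 (-0.138), and leaving out that library also turned it in a fit of only these groups (-0.130), with DESeq2 (-0.150) and with the replicate block (-0.126). With UK replicate 5 kept, MPC2 was at 0.82 in the fit of only these groups and at 0.55 with the block. NDUFB3 turned under the same 4 settings without UK replicate 5 (-0.10, -0.0952, -0.12 and -0.11), as did RPL24 (-0.21, -0.20, -0.22 and -0.20). COL3A1 turned with library totals alone (0.12, and 0.20 without UK replicate 5), SUCLG2 with library totals and without UK replicate 5 (0.037), and COL1A1 without UK replicate 4 (-0.00067). COL1A1 reached 0.45 with library totals alone and no UK replicate 5 (adjusted p = 0.0179 by edgeR). With each library left out in turn, MPC2 ranged from -0.14 to 0.98, NDUFB3 from -0.10 to 1.23, RPL24 from -0.21 to 1.28 and COL1A1 from -0.00067 to 0.17. The cause was not tested. Of the named genes, those whose call was lost on leaving out 1 of the other 9 libraries were PDGFRB and WWTR1 (lost in all 9 such fits), KDR and WIPI1 (7), SREBF1 (6), ATP5F1B and RPL24 (5), and NDUFB3 and ITGB8 (4). Of 207 named genes, a fit of only these groups with all libraries lost the calls of 17, namely ACTG2, ATP5F1B, COX8A, ITGB8, KDR, NDUFB3, PARP14, PDGFRB, PFKFB4, PMVK, RPL13, RPL24, SREBF1, SUCLG2, TIPARP, WIPI1 and WWTR1. That fit has fewer samples. Without UK replicate 5 it lost the call of NDUFB3, whose direction also turned (-0.0952, adjusted p = 0.248 by edgeR). RPL24 was there called in the opposite direction (-0.199, adjusted p = 0.0132 by edgeR). No other named gene lost its call in that fit. The replicate block lost 5, KDR, NDUFB3, PDGFRB, RPL24 and WWTR1. Library totals alone lost 6, ATP5F1B, DLST, IDH3A, PARP14, SUCLG2 and WIPI1. UK replicate 5 had the lowest depth of the series. Low genes such as PDK4 and CDC20 are limited by their counts.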
